A study of Homo sapiens with 10 samples.

Results

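Colony BR8 of the TPC-1 line, a human papillary thyroid carcinoma cell line whose CCDC6-RET gene fusion is carried by every library here, was compared with its parental cells. BR8 had been grown from TPC-1 cells kept in 5 µM BLU667, the RET kinase inhibitor pralsetinib. The sample labels put this exposure at more than 50 days, whereas the series design puts it at more than 5 months. The parental cells had received the solvent DMSO for 24 h. Each group had 2 libraries, called biological replicates in the series design, and BR8 is a single colony, so that its 2 libraries measure the spread within that colony and not between adapted colonies. Nothing further says that the replicates were separate cultures, so p-values measure only the spread between these libraries. Colonies BR10 and BR16, derived in the same way, and parental cells given 5 µM BLU667 for 24 h, with 2 libraries each, were used to show where BR8 differed from other cells exposed to the drug. The genes described are those with at least 1 FPKM (fragments per kilobase of gene, scaled to library size, the authors' deposited unit) in at least 2 of the 4 BR8 and DMSO libraries. This rule kept 12471 of 58735 genes, 10582 of them protein coding. Of the kept genes, 10407 reached 1 FPKM in all 4 libraries, 681 did so in both BR8 libraries and neither DMSO library, and 525 in both DMSO libraries and neither BR8 library. For these 681 and 525 genes the filter itself fixed the direction of the change. Those among them that belong to a gene group stay in its counts. Every tested gene named below with both BR8 or both DMSO libraries under 1 FPKM belongs to these sets. DISC1 and FGF12 lay just inside the threshold, each with 1.00 FPKM in its second highest library, and COL6A3 and ADAM8 just outside it, also with 1.00 FPKM when rounded.

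RET is a receptor tyrosine kinase that the CCDC6 part of the fusion holds in an active, ligand-independent state. Its main output in thyroid cancer cells runs through RAS, RAF, MEK and ERK, which switch on immediate early transcription factors, cyclin D1 and feedback inhibitors such as the Sprouty and dual-specificity phosphatase genes. Cells kept under a kinase inhibitor for long periods can regain growth through other receptors, their ligands, or changes of cell state, which makes these gene groups the usual ones to examine in an adapted colony.

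The BR8 libraries held 17238189 and 16570660 reads in genes and the DMSO libraries 18063122 and 15703804. The 2 DMSO libraries stood apart from each other along the GC content of transcripts: their difference correlated with GC at a Spearman rho of 0.668 across genes, against 0.171 between the BR8 libraries, and the difference of BR8 from DMSO correlated at -0.30. Genes are not independent replicates, and these values are descriptions. Calls were therefore also made with each library's GC trend removed and without each DMSO library, and a call that either change ended is named as lost beside the gene. Changes are log2 differences, BR8 minus DMSO, on the log2(FPKM + 1) scale, which understates the change of low genes, with the standard error (SE) of a limma fit of all 10 libraries. A gene was called when its two-sided p, adjusted by the Benjamini-Hochberg method over the 12471 genes, was below 0.05. A dagger marks a gene that shares at least 10% of its exon bases with another gene, so that reads of this non-directional library cannot be told apart by strand.

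The thyroid label was checked against 14 markers of follicular cells. Only the transcription factor genes PAX8, GLIS3, HHEX and FOXE1 passed the filter. The hormone precursor thyroglobulin, TG, stood at 0.230 and 0.181 FPKM in BR8 and 0.0436 and 0.00568 FPKM in DMSO, and thyroid peroxidase, the iodide carrier SLC5A5 and NKX2-1 had 0 in all 4 libraries, so these markers of thyroid function were at or near 0 in both groups. No marker of C cells, endothelium, immune cells or erythroid cells passed the filter, and 1 of 7 squamous and 3 of 9 fibroblast markers did.

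In BR8, 3236 of 12471 genes (25.9%) were called higher and 3750 (30.1%) lower than in DMSO, together 56.0%, with a median change over all tested genes of -0.03 and a median SE of 0.12. Changes of at least 2-fold numbered 931 genes higher (7.47%) and 1084 lower (8.69%). With the GC trend removed, 3897 genes were higher and 3262 lower, which turns the balance of the directions, and 6046 of the 6986 calls were made in both with the same sign. Every gene group below should be read against this background of 25.9% higher and 30.1% lower, in which about 1 gene in every 2 was called. Calls on both sides are thus the usual state of a group. The BR8 and DMSO libraries did not overlap in 9297 genes (74.5%). In such bulk RNA, fewer cells of a kind and less RNA per cell cannot be told apart.

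RET itself (ENSG00000165731, GRCh38 chromosome 10, 43077027 to 43130351, plus strand) was at 7.24 and 7.04 FPKM in BR8, against 6.90 and 6.92 FPKM in DMSO, and was not called (0.04 ± 0.08, adjusted p = 0.662 by limma). A call appeared only with the GC trend removed and DMSO replicate 2 left out (0.34, adjusted p = 0.0159). RET was lower in BR8 than in parental cells given BLU667 for 24 h, which had 8.52 and 9.34 FPKM (-0.29, adjusted p = 0.0107). Gene totals do not separate transcripts of the fusion from those of the normal allele. CCDC6, the fusion partner, was below the filter, at 0.124 and 0.0808 FPKM in BR8 and 0.727 and 0.293 FPKM in DMSO. TERT, the catalytic subunit of telomerase, was at 0.284 and 0.116 FPKM in BR8, against 1.59 and 1.5 FPKM in DMSO (-1.09 ± 0.14, adjusted p = 0.000213), a call lost with the GC trend taken out (-0.31, adjusted p = 0.158 by limma). CDKN2A, the source of p16 and ARF, both brakes on the cell cycle, fell to 12.9 and 11.5 FPKM in BR8, against 57.9 and 47.5 FPKM in DMSO (-2.02 ± 0.13, adjusted p = 4.45e-06).

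The largest rises were led by genes that were almost silent in DMSO cells. MAL2, a membrane protein of transport to the apical surface of epithelial cells, had 137 and 141 FPKM in BR8, against 0.220 and 0.147 FPKM in DMSO (6.88 ± 0.13, adjusted p = 9.91e-09). EDN2, the vasoconstrictor peptide endothelin-2, had 98.9 and 79.3 FPKM in BR8, against 0.296 and 0.154 FPKM in DMSO (6.19 ± 0.11). NOV, a matricellular protein also called CCN3, had 61.3 and 58.8 FPKM in BR8, against 0.0605 and 0.166 FPKM in DMSO (5.78 ± 0.09). All 3 genes were above 50 FPKM in each BR8 library and below 1 FPKM in each DMSO library. The small membrane protein gene PDZK1IP1 rose (113 and 122 FPKM in BR8, 1.20 and 1.5 in DMSO, 5.66 ± 0.09), as did the cytokine IL32 (103 and 76.8 FPKM in BR8, 0.941 and 1.00 in DMSO, 5.51 ± 0.17). IGFBP7†, a secreted binder of insulin-like growth factors, was already expressed in DMSO and reached the highest level of these rises (869 and 997 FPKM in BR8, 24.1 and 21.9 in DMSO, 5.28 ± 0.12).

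The other 5 rises described belong to genes that encode proteins best known from immune cells, bone and matrix. ALOX5AP, which serves leukotriene synthesis, had 32.0 and 32.2 FPKM in BR8 and 0.472 and 0.406 in DMSO (4.52 ± 0.13). CLEC4E, a lectin receptor of innate immune cells, had 32.4 and 31.3 FPKM in BR8 and 0.245 and 0.731 in DMSO (4.48 ± 0.15). TNFRSF11B, the decoy receptor osteoprotegerin, had 35.9 and 37.2 FPKM in BR8 and 0.649 and 1.07 in DMSO (4.34 ± 0.18). None of the immune markers passed the filter, and the summed level of the 7 immune markers was 0.0947 and 0.0629 FPKM in BR8 and 0.172 and 0.121 FPKM in DMSO. The matrix protein gene MATN2 (28.8 and 27.4 FPKM in BR8, 0.513 and 0.511 in DMSO, 4.27 ± 0.08) and TNFRSF9, the receptor 4-1BB (42.1 and 39.2 FPKM in BR8, 1.07 and 1.37 in DMSO, 4.23 ± 0.09), completed the set. Adjusted p for these 11 rises were at most 4.85e-07.

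The largest falls took genes that were well expressed in parental cells to near 0. G0S2, an inhibitor of lipolysis, had 1.18 and 0.754 FPKM in BR8, against 294 and 176 FPKM in DMSO (-6.87 ± 0.32, adjusted p = 7.88e-07). NOX5, an NADPH oxidase, had 0.0136 and 0.0237 FPKM in BR8, from 8 reads in all, against 63.5 and 56.4 FPKM in DMSO (-5.90 ± 0.10). EMP1, a membrane protein of epithelial cells, had 0.0798 and 0.0530 FPKM in BR8, against 35.9 and 34.8 FPKM in DMSO (-5.09 ± 0.09). In each of the 3 genes every BR8 library was far below both DMSO libraries. The protein-crosslinking enzyme TGM2 fell while it kept a measurable level (7.06 and 6.62 FPKM in BR8, 310 and 261 in DMSO, -5.19 ± 0.16). KRT81, a hair keratin whose near-identical relatives make its reads uncertain, fell as well (0.826 and 0.554 FPKM in BR8, 82.6 and 65.1 in DMSO, -5.46 ± 0.22).

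The remaining 7 large falls included regulators and surface proteins. LAPTM5, a lysosomal membrane protein, had 1.51 and 1.63 FPKM in BR8 and 61.3 and 80.0 in DMSO (-4.79 ± 0.16). The Krüppel-like transcription factor KLF2 had 0.366 and 0.118 FPKM in BR8 and 33.2 and 26.9 in DMSO (-4.64 ± 0.22), and the secreted growth factor CLEC11A had 3.95 and 2.59 FPKM in BR8 and 108 and 78.1 in DMSO (-4.46 ± 0.24). The carbonic anhydrase CA12 had 0.280 and 0.357 FPKM in BR8 and 27.1 and 23.1 in DMSO (-4.30 ± 0.12), and the sialic acid binding lectin SIGLEC15 had 0.696 and 0.759 FPKM in BR8 and 32.6 and 31.3 in DMSO (-4.25 ± 0.13). TNFSF9, which encodes the ligand of the 4-1BB receptor, fell (1.71 and 1.64 FPKM in BR8, 45.6 and 40.6 in DMSO, -4.04 ± 0.17), so that receptor and ligand genes changed in opposite directions. DDIT4†, an inhibitor of mTORC1 that many stresses induce, completed the 12 (5.31 and 3.69 FPKM in BR8, 114 and 68.2 in DMSO, -4.03 ± 0.33), and adjusted p for the falls were at most 1.87e-05.

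**Figure D1:**
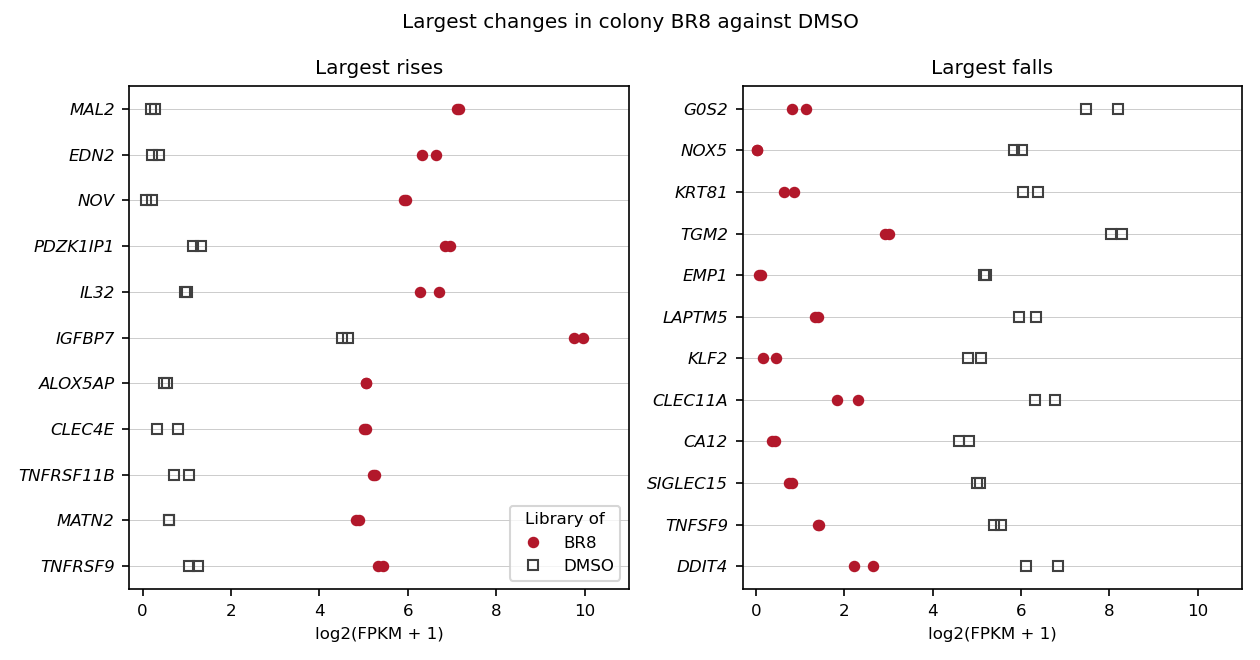
Levels of 11 genes with the largest rises (left) and the 12 with the largest falls (right) as log2(FPKM + 1), with a filled circle for each of the 2 BR8 libraries and an open square for each of the 2 DMSO libraries. The 23 genes were chosen among those whose BR8 and DMSO libraries do not overlap, so their separation follows from the choice. They run from MAL2 (137 and 141 FPKM in BR8, 0.220 and 0.147 FPKM in DMSO) to G0S2 (1.18 and 0.754 FPKM in BR8, 294 and 176 FPKM in DMSO).

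The transcripts that ERK signalling induces were mostly lower in BR8 than in DMSO cells and in part higher than after 24 h of the drug. Of the 19 tested genes of this group, 16 were lower, 1 higher and 2 not called, with a median of -1.71 against -0.03 over all tested genes. Against parental cells given BLU667 for 24 h, 10 of the 19 were higher in BR8 and 2 lower (median 0.43), where 33.3% of all tested genes were higher and 26.7% lower. The AP-1 subunit FOSL1 had 18.0 and 16.4 FPKM in BR8, against 221 and 170 FPKM in DMSO (-3.42 ± 0.25, adjusted p = 1.12e-05). The feedback inhibitor SPRY4 had 0.321 and 0.389 FPKM in BR8, against 9.22 and 8.74 FPKM in DMSO (-2.88 ± 0.11, adjusted p = 3.40e-07). The ETS factor ETV5 (2.78 and 2.65 FPKM in BR8, 19.8 and 21.6 in DMSO, -2.55 ± 0.08) and the Sprouty gene SPRY1 (0.244 and 0.0749 FPKM in BR8, 5.74 and 5.62 in DMSO, -2.53 ± 0.13) fell in the same way. SPRY4 and SPRY1 passed the filter through the DMSO libraries alone, so they could only appear as falls. The member called higher was the immediate early factor EGR1 (4.82 and 5.33 FPKM in BR8, 2.73 and 2.44 in DMSO, 0.76 ± 0.25, adjusted p = 0.0312), and that call was lost when any 1 of the 4 libraries was left out. CCND1†, cyclin D1, was only slightly lower (81.2 and 70.6 FPKM in BR8, 104 and 108 in DMSO, -0.48 ± 0.09, adjusted p = 0.00213), and DUSP5, a phosphatase of ERK, was not called (18.9 and 17.3 FPKM in BR8, 21.2 and 19.4 in DMSO, -0.16 ± 0.18, adjusted p = 0.493). EGR1, CCND1 and DUSP5 were singled out after their values were seen.

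Among 22 tested genes between RET and ERK, 7 were higher and 8 lower, and 4 were higher when only BR8 and DMSO entered the fit. The adaptor SHC1† (29 and 28.9 FPKM in BR8, 112 and 95.2 in DMSO, -1.80 ± 0.15), the insulin receptor substrates IRS1 (1.59 and 1.55 FPKM in BR8, 7.57 and 6.40 in DMSO, -1.63 ± 0.11) and IRS2 (2.05 and 1.66 FPKM in BR8, 8.61 and 7.04 in DMSO, -1.63 ± 0.11) and the kinase SRC (6.87 and 5.48 FPKM in BR8, 18.7 and 13.7 in DMSO, -1.25 ± 0.15) fell, with adjusted p of at most 0.0002. The counts of this list were near the background of 25.9% higher and 30.1% lower genes, and its median was -0.06.

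Apart from RET, 18 receptor tyrosine kinases were tested, against a background of 25.9% higher and 30.1% lower genes. Of these, 5 were higher and 7 lower, and 4 were lower without BR8 replicate 2 or without DMSO replicate 1. EGFR, the epidermal growth factor receptor, had 96.8 and 97.5 FPKM in BR8, against 18.8 and 19.6 FPKM in DMSO (2.28 ± 0.07, adjusted p = 1.48e-07). MET, the receptor of hepatocyte growth factor, had 30.4 and 31.3 FPKM in BR8, against 86.0 and 107 FPKM in DMSO (-1.60 ± 0.10, adjusted p = 4.78e-06). EGFR and MET, both well expressed, therefore changed in opposite directions. The BR8 and DMSO libraries did not overlap in either, as in 74.5% of all tested genes. The ephrin receptor EPHB2 rose (7.72 and 9.41 FPKM in BR8, 2.37 and 1.85 in DMSO, 1.62 ± 0.18), and PDGFRB, a receptor of platelet-derived growth factors, fell (0.143 and 0.108 FPKM in BR8, 2.80 and 2.71 in DMSO, -1.74 ± 0.14). PDGFRB passed the filter through the DMSO libraries alone, so it could only appear as a fall.

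Of 18 tested ligands of these receptors, 7 were higher and 3 lower, against 25.9% and 30.1% of all tested genes. PDGFB, a platelet-derived growth factor chain, had 24.1 and 20.7 FPKM in BR8, against 0.932 and 0.673 FPKM in DMSO (3.70 ± 0.11, adjusted p = 1.23e-07), and PDGFD had 7.99 and 8.04 FPKM in BR8, against 0.253 and 0.637 FPKM in DMSO (2.65 ± 0.12). The EGFR ligands moved apart: BTC, betacellulin, rose (2.91 and 3.10 FPKM in BR8, 0.153 and 0.135 in DMSO, 1.81 ± 0.11), and TGFA, transforming growth factor alpha, fell (9.28 and 8.66 FPKM in BR8, 34.5 and 37.9 in DMSO, -1.90 ± 0.10). PDGFB, PDGFD and BTC passed the filter through the BR8 libraries alone, so they could only appear as rises and are counted among the 7.

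**Figure D2:**
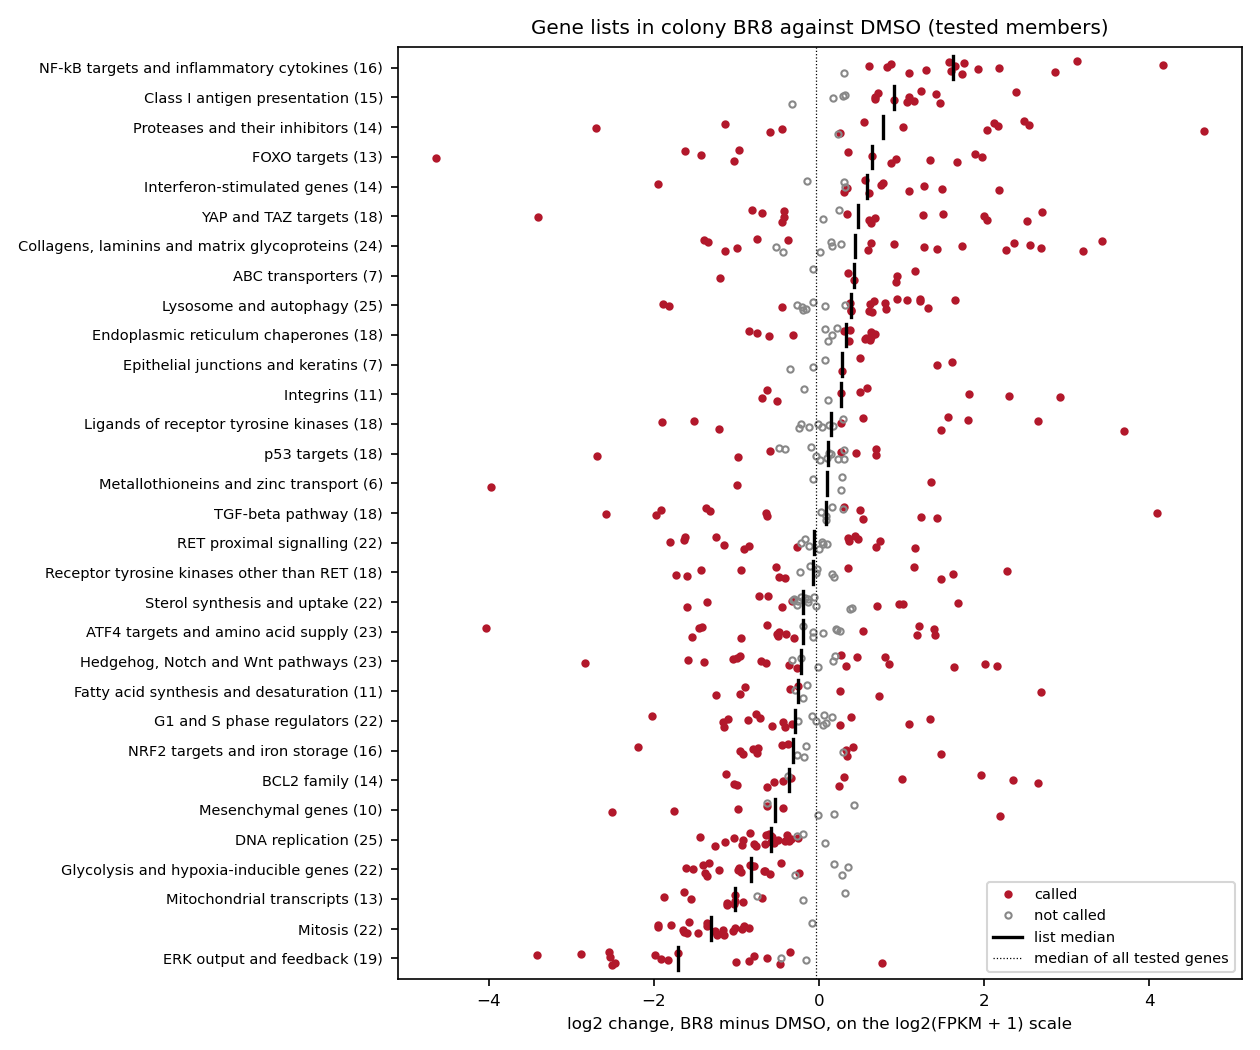
Change of each tested member of 31 gene groups in BR8 against DMSO, as the log2 difference on the log2(FPKM + 1) scale, with filled points for called genes, open points for the others, a bar at each group's median and a dotted line at the median of all tested genes (-0.03). The NF-kB group has the highest median (1.63) and the ERK group the lowest (-1.71), and most other groups hold called members on both sides.

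Proliferation genes were lower in BR8 than in DMSO cells and far higher than in parental cells after 24 h of the drug. Of 22 tested mitosis genes, 21 were lower than in DMSO and 0 higher (median -1.31), whereas all 22 were higher than in the BLU667 24 h cells (median 2.88). MKI67, the Ki-67 proliferation marker, had 15.4 and 17.5 FPKM in BR8, against 66.7 and 66.0 FPKM in DMSO (-1.95 ± 0.13, adjusted p = 5.19e-06). The mitotic kinase PLK1† had 9.27 and 9.45 FPKM in BR8, against 40.6 and 37.4 FPKM in DMSO (-1.95 ± 0.09, adjusted p = 7.15e-07). PBK, another mitotic kinase, and cyclin B1, CCNB1, fell by similar amounts (-1.79 ± 0.14 and -1.64 ± 0.16). In none of these genes did the groups overlap, as in 74.5% of all tested genes. Against the BLU667 24 h libraries, MKI67 was higher in BR8 by 3.38 and PLK1 by 2.37 on the log2 scale. CDK1, the kinase that cyclin B1 activates, was the member not called (59.7 and 63.3 FPKM in BR8, 58.0 and 73.6 in DMSO, -0.09 ± 0.11, adjusted p = 0.542).

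DNA replication followed with smaller changes: 22 of 25 tested genes were lower, 0 higher and 3 not called (median -0.59). The licensing factor CDT1 (6.21 and 6.65 FPKM in BR8, 22.2 and 16.6 in DMSO, -1.44 ± 0.15) and the polymerase subunit POLD1 (-1.26 ± 0.15) fell, as did the helicase subunits MCM5 (-1.14 ± 0.12) and MCM7 (-1.03 ± 0.11). Of 22 G1 and S phase regulators, 4 were higher and 11 lower, against 25.9% and 30.1% of all tested genes. Inhibitors of the cycle were found on both sides: beside CDKN2A, the inhibitor CDKN2C (11.4 and 10.8 FPKM in BR8, 28.4 and 23.7 in DMSO, -1.16 ± 0.11) and the S phase transcription factor E2F2 (1.63 and 1.38 FPKM in BR8, 5.06 and 4.06 in DMSO, -1.15 ± 0.12) fell, while the inhibitor CDKN1C rose (10.1 and 8.96 FPKM in BR8, 3.46 and 2.83 in DMSO, 1.35 ± 0.16). The rises numbered 2 when only BR8 and DMSO entered the fit.

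**Figure D3:**
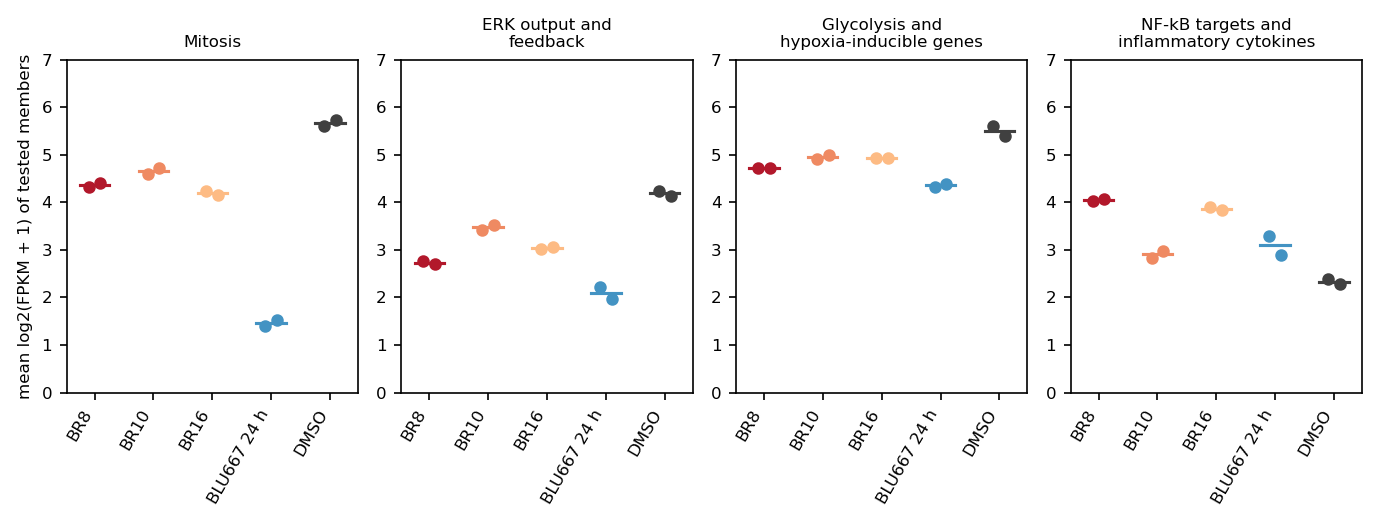
Mean log2(FPKM + 1) of the tested members of 4 gene groups in every library of BR8, BR10, BR16, parental cells given BLU667 for 24 h and parental cells given DMSO, with a point for each library and a bar at the group mean. The mitosis genes stand at 4.33 and 4.41 in BR8, at 1.40 and 1.53 after 24 h of BLU667 and at 5.60 and 5.73 in DMSO, and the NF-kB genes at 4.02 and 4.07 in BR8 and 2.38 and 2.27 in DMSO.

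The transcripts of glucose use were lower in BR8. Of 22 tested glycolysis and hypoxia-inducible genes, 18 were lower and 0 higher (median -0.82). With the GC trend removed 18 were lower and 3 higher, and without BR8 replicate 2 or DMSO replicate 1 there was 1 higher. The glucose carrier SLC2A1 had 19.7 and 17.1 FPKM in BR8, against 63.5 and 53.5 FPKM in DMSO (-1.62 ± 0.14, adjusted p = 2.46e-05). PFKFB4, which controls the phosphofructokinase step, hexokinase HK2 and the hypoxia-inducible gene NDRG1 fell too (-1.53 ± 0.13, -1.40 ± 0.10 and -1.38 ± 0.11). The carrier SLC2A3, chosen after its values were seen, had no read in either BR8 library and 332 reads in DMSO (1.65 and 1.47 FPKM), at least 110-fold lower in BR8 when 3 reads over the group are taken as the floor.

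Transcripts of the mitochondrial genome were also lower: 10 of 13 were called lower and 0 higher (median -1.02), and 4 were lower with no filter on low values, while 1 was higher without BR8 replicate 2 or without DMSO replicate 2. MT-ND1, a complex I subunit, had 1053 and 665 FPKM in BR8, against 2759 and 3437 FPKM in DMSO (-1.88 ± 0.29, adjusted p = 0.000763). MT-ND3 (-1.55 ± 0.31), MT-ATP8† (-1.64 ± 0.32) and MT-ND6 (-1.12 ± 0.32) fell as well, and the MT-ND6 call was lost without BR8 replicate 2 (-0.66) or DMSO replicate 2 (-0.81). BR8 replicate 2 was the lower BR8 library in each of the 4. Mitochondrial genes took 3.64% and 3.23% of the reads in BR8 and 4.65% and 5.33% in DMSO, and the part of RNA quality or library preparation in this result was not tested.

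Lipid genes were mixed. Among 22 sterol genes 4 were higher and 6 lower, where 25.9% of all tested genes were higher and 30.1% lower. SREBF1, a transcription factor of lipid synthesis, fell (9.30 and 8.63 FPKM in BR8, 32.7 and 26.1 in DMSO, -1.60 ± 0.12). Among 11 fatty acid genes, 3 were higher and 5 lower, and 3 were lower when only BR8 and DMSO entered the fit. ACSS2, which makes acetyl-CoA from acetate, had 44.1 and 47.2 FPKM in BR8, against 7.01 and 5.53 FPKM in DMSO (2.69 ± 0.19, adjusted p = 7.94e-06). The desaturase SCD fell (64.6 and 64.5 FPKM in BR8, 161 and 148 in DMSO, -1.25 ± 0.17), with ACSL3 (-0.96 ± 0.10) and the synthase FASN (-0.89 ± 0.17), whose call was lost with the GC trend removed (-0.14, adjusted p = 0.152).

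Of 23 ATF4 targets, 5 were higher and 11 lower, and with the GC trend removed 8 were higher and 8 lower. Beside DDIT4, the pseudokinase TRIB3 (6.05 and 5.60 FPKM in BR8, 20.1 and 17.6 in DMSO, -1.54 ± 0.11), the transcription factor ATF5† (3.95 and 2.33 FPKM in BR8, 9.69 and 10.6 in DMSO, -1.46 ± 0.19) and CEBPB† (-1.42 ± 0.17) fell. Chaperones of the endoplasmic reticulum went mostly the other way, with 10 of 18 higher and 4 lower, or 2 lower without BR8 replicate 2. PDIA6† (87.8 and 97.7 FPKM in BR8, 57.8 and 57.4 in DMSO, 0.68 ± 0.09) and HYOU1 (27.0 and 29.5 FPKM in BR8, 20.7 and 15.4 in DMSO, 0.63 ± 0.13) rose, and PDIA4 (-0.85 ± 0.09) and MANF (-0.75 ± 0.13) fell.

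Among 16 NRF2 targets and iron storage genes, 4 were higher and 8 lower, which became 2 higher without BR8 replicate 2 and 5 lower without BR8 replicate 1. The ferritin chains led the falls: FTH1†, whose many pseudogenes make its reads uncertain, had 98.3 and 49.3 FPKM in BR8, against 359 and 290 FPKM in DMSO (-2.19 ± 0.45, adjusted p = 0.00319), and FTL had 1656 and 1393 FPKM in BR8, against 2961 and 2798 FPKM in DMSO (-0.92 ± 0.15, adjusted p = 0.000838). The OSGIN1† level was lower (-0.95 ± 0.15) and the aldose reductase AKR1B1 higher (355 and 315 FPKM in BR8, 121 and 119 in DMSO, 1.48 ± 0.13). Of 6 tested metallothionein and zinc genes, 1 was higher and 2 lower. The metallothionein MT1E, which has close copies, had 0 reads in both BR8 libraries and 11.4 and 19.0 FPKM in DMSO, at least 183-fold lower in BR8, while its neighbour in the family MT1X† was higher (3.30 and 4.75 FPKM in BR8, 0.578 and 1.39 in DMSO, 1.36 ± 0.27), and the zinc exporter SLC30A1 was lower (-0.99 ± 0.13).

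The NF-kB targets and inflammatory cytokines formed the group with the highest median. NF-kB is a family of transcription factors that inflammatory stimuli release from their inhibitors and that induces cytokines, adhesion molecules and those same inhibitors. Of 16 tested members, 15 were higher in BR8 and 0 lower, with a median of 1.63, and 15 were higher with the GC trend removed. IL6†, a cytokine that signals to neighbouring cells, had 30.3 and 32.8 FPKM in BR8, against 0.860 and 0.764 FPKM in DMSO (4.17 ± 0.15, adjusted p = 2.72e-07). The neutrophil chemokine CXCL8 had 48.2 and 50.0 FPKM in BR8, against 3.79 and 5.90 FPKM in DMSO (3.12 ± 0.32, adjusted p = 6.74e-05). The adhesion receptor ICAM1† had 8.66 and 7.78 FPKM in BR8, against 0.364 and 0.171 FPKM in DMSO (2.87 ± 0.13, adjusted p = 7.77e-07). In these 3 genes, both BR8 libraries lay far above both DMSO libraries. IL6 and ICAM1 passed the filter through the BR8 libraries alone, so they could only appear as rises. Of the 21 members of the list, 16 passed. The monocyte chemokine CCL2 rose as well (20.5 and 17.5 FPKM in BR8, 3.37 and 3.44 in DMSO, 2.18 ± 0.15). NFKBIA, the inhibitor of NF-kB that NF-kB itself induces, had 22 and 23.6 FPKM in BR8, against 9.64 and 7.83 FPKM in DMSO (1.29 ± 0.14, adjusted p = 8.69e-05). The member that was not called was the chemokine CXCL2 (6.07 and 5.26 FPKM in BR8, 4.17 and 4.64 in DMSO, 0.30 ± 0.23, adjusted p = 0.299), which shares sequence with CXCL1.

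RefSeq promoters (GRCh38.p14) were read for the members of this group because they moved together. The motif GGNNNTTCC, a short form of the site that NF-kB dimers bind, was searched on both strands in the 250 bases before each gene's start. It was present in 10 of the 12 tested members that had an entry, and in 20.4% of 8764 promoters of tested genes and 17.1% of all 27305 promoters of that length. NFKB2 and IL11, both called higher, had no match, whereas CXCL2, which was not called, had 2. CCL2, LIF, NFKBIE and RELB had no entry. The group was assembled as NF-kB targets, so a high share of matches can follow from the choice of members, and a link to the changes in BR8 was not tested. The stretches around a match in 4 members are given 5′ to 3′ on the gene's strand, with the match in capitals: IL6 (chr7:22727083-22727182, plus strand), CXCL8 (chr4:73740433-73740532, plus strand), ICAM1 (chr19:10270889-10270988, plus strand) and NFKBIA (chr14:35404776-35404875, minus strand). A match describes the letters of the reference genome, and binding was not measured.
IL6: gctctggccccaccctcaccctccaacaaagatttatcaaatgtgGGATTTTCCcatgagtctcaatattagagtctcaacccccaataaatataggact
CXCL8: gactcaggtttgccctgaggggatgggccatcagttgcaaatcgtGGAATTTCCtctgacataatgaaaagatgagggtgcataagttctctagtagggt
ICAM1: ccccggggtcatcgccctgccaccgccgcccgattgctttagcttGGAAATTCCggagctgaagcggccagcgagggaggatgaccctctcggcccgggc
NFKBIA: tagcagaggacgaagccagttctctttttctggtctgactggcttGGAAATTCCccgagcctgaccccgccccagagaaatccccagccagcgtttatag

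Interferon-stimulated genes and the class I antigen presentation genes were mostly higher too. Of 14 tested interferon-stimulated genes, 10 were higher and 1 lower (median 0.58). IFIT3 (13.6 and 16.6 FPKM in BR8, 4.45 and 5.01 in DMSO, 1.49 ± 0.12) and IFI6 (20.4 and 16.8 FPKM in BR8, 6.36 and 7.82 in DMSO, 1.28 ± 0.13) rose, and the membrane protein IFITM3†, whose relatives are very similar, fell (29.3 and 28.6 FPKM in BR8, 127 and 104 in DMSO, -1.95 ± 0.17). Of 15 class I genes, 11 were higher and 0 lower (median 0.91). HLA-B† had 137 and 131 FPKM in BR8, against 27.3 and 22.5 FPKM in DMSO (2.39 ± 0.12), with the caution that HLA genes share reads. ERAP1, which trims peptides for class I molecules, rose (28.6 and 30.6 FPKM in BR8, 9.65 and 10.4 in DMSO, 1.47 ± 0.08), as did the immunoproteasome subunit PSMB9 (3.57 and 3.83 FPKM in BR8, 1.42 and 0.638 in DMSO, 1.24 ± 0.17).

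Matrix genes changed in level, with more rises than falls. Of 24 collagens, laminins and matrix glycoproteins, 12 were higher and 6 lower (median 0.44). The basement membrane collagen COL4A1 had 397 and 372 FPKM in BR8, against 35.8 and 33.5 FPKM in DMSO (3.43 ± 0.08, adjusted p = 3.01e-08). The anchoring collagen COL7A1 had 17.2 and 15.1 FPKM in BR8, against 1.89 and 1.43 FPKM in DMSO (2.69 ± 0.13). THBS1, thrombospondin 1, was the most abundant of these rises (826 and 771 FPKM in BR8, 125 and 145 in DMSO, 2.56 ± 0.10). Fibronectin, FN1, went the other way, with 20.3 and 21.9 FPKM in BR8, against 121 and 127 FPKM in DMSO (-2.50 ± 0.13, adjusted p = 1.79e-06).

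Of 11 integrins, 6 were higher and 3 lower. The largest rises were in ITGAV, the alpha V subunit, and in its partner chains ITGB8 and ITGB6. ITGB8 and ITGB6 passed the filter through the BR8 libraries alone, so they could only appear as rises. ITGB8 had 7.88 and 6.69 FPKM in BR8, against 0.0925 and 0.0793 FPKM in DMSO (2.93 ± 0.15), ITGB6† had 4.94 and 4.52 FPKM in BR8, against 0.173 and 0.148 FPKM in DMSO (2.30 ± 0.15), and ITGAV itself had 153 and 148 FPKM in BR8, against 37.5 and 47.4 FPKM in DMSO (1.81 ± 0.11). ITGA6, a laminin receptor chain, fell (11.5 and 12.1 FPKM in BR8, 18.7 and 20.9 in DMSO, -0.70 ± 0.09). Among 14 proteases and inhibitors, 9 were higher and 4 lower. The metalloprotease ADAMTS1 (35.5 and 36.4 FPKM in BR8, 5.54 and 5.16 in DMSO, 2.54 ± 0.07) and the elastase inhibitor SERPINA1 (41.2 and 55.1 FPKM in BR8, 8.68 and 6.75 in DMSO, 2.49 ± 0.15) rose, and ADAM19 fell (1.11 and 1.27 FPKM in BR8, 14.5 and 12.2 in DMSO, -2.71 ± 0.12). The matrilysin gene MMP7, chosen after its values were seen, had 3.40 and 3.58 FPKM in BR8 and no read in DMSO, at least 92.9-fold higher.

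Of 7 tested epithelial genes, 4 were higher and 0 lower: the keratin KRT80 (73.3 and 70.9 FPKM in BR8, 24.4 and 21.4 in DMSO, 1.62 ± 0.10), the claudin CLDN1 (139 and 135 FPKM in BR8, 45.8 and 55.1 in DMSO, 1.43 ± 0.24), occludin, OCLN (0.49 ± 0.12), and TJP1 (0.28 ± 0.10, adjusted p = 0.0453), a call lost with the GC trend removed (0.24, adjusted p = 0.0607 by limma), without BR8 replicate 1 (0.27), BR8 replicate 2 (0.30) or DMSO replicate 1 (0.16, adjusted p = 0.192), as well as with no filter on low values, with only BR8 and DMSO in the fit or with no variance trend. Of 10 mesenchymal genes, 1 was higher and 5 lower, and 3 were higher with the GC trend removed. The rise was that of the transcription factor SNAI2 (22.7 and 25.7 FPKM in BR8, 3.82 and 5.26 in DMSO, 2.19 ± 0.12), while its relative SNAI1 (1.72 and 1.58 FPKM in BR8, 7.64 and 8.33 in DMSO, -1.76 ± 0.13) and ZEB1 (4.60 and 4.52 FPKM in BR8, 9.19 and 10.9 in DMSO, -0.98 ± 0.10) fell beside FN1. Of the 3 fibroblast markers tested, LUM rose, and PDPN (1.49 and 2.21 FPKM in BR8, 24.6 and 26.4 in DMSO, -3.23 ± 0.13) and PDGFRB fell. The summed level of the 9 fibroblast markers was 7.76 and 9.74 FPKM in BR8 and 28.0 and 29.6 FPKM in DMSO, and decorin, DCN, had 0 in all 4 libraries. The 1 tested squamous marker, SFN, rose (11.5 and 9.31 FPKM in BR8, 0.735 and 0.575 in DMSO, 2.78 ± 0.22). LUM and SFN passed the filter through the BR8 libraries alone, and PDGFRB through the DMSO libraries alone. The filter thus fixed the direction of change of LUM, SFN and PDGFRB.

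YAP and TAZ targets were higher in 10 of 18 cases and lower in 6. The background for this list and those that follow was 25.9% higher and 30.1% lower genes. NUAK2 (55.7 and 59.4 FPKM in BR8, 9.43 and 6.73 in DMSO, 2.70 ± 0.13), the Hippo pathway member WWC1 (49.9 and 49.4 FPKM in BR8, 8.05 and 7.61 in DMSO, 2.52 ± 0.08) and F3, tissue factor (9.06 and 9.31 FPKM in BR8, 1.5 and 1.47 in DMSO, 2.03 ± 0.12), rose, and the ectonucleotidase NT5E fell (8.12 and 8.54 FPKM in BR8, 88.9 and 109 in DMSO, -3.41 ± 0.17). In the TGF-beta list, 6 of 18 were higher and 7 lower. TGFBI, a matrix protein induced by TGF-beta, had 50.5 and 55.5 FPKM in BR8, against 2.01 and 2.30 FPKM in DMSO (4.10 ± 0.24, adjusted p = 2.93e-06), whereas ID3 (4.31 and 2.97 FPKM in BR8, 24.7 and 28.6 in DMSO, -2.59 ± 0.17) and ID2 (8.90 and 10.5 FPKM in BR8, 37.1 and 44.9 in DMSO, -1.97 ± 0.11), targets of the BMP branch, and the inhibitory SMAD6 (-1.91 ± 0.16) fell. Of 23 hedgehog, Notch and Wnt genes, 8 were higher and 10 lower, or 5 higher without BR8 replicate 2. The Notch ligand JAG1 (11.8 and 11.4 FPKM in BR8, 1.76 and 1.85 in DMSO, 2.16 ± 0.08), WNT5B (12.4 and 10.3 FPKM in BR8, 1.98 and 2.13 in DMSO, 2.01 ± 0.10) and the hedgehog effector GLI2 (1.64 ± 0.12) rose, and the Notch target HES1 fell (1.49 and 2.04 FPKM in BR8, 19.8 and 17.7 in DMSO, -2.84 ± 0.13).

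Cell survival genes changed on both sides, as did tested genes at large (25.9% higher, 30.1% lower). Of 14 BCL2 family genes, 6 were higher and 7 lower, or 4 lower when only BR8 and DMSO entered the fit. The anti-apoptotic BCL2 rose (5.81 and 5.08 FPKM in BR8, 0.646 and 0.656 in DMSO, 1.96 ± 0.10), and so did BCL2A1, an NF-kB target of the same class (3.97 and 4.74 FPKM in BR8, 0.0990 and 0 in DMSO, from 2 reads, 2.35 ± 0.18). The pro-apoptotic BIK also rose (10.9 and 6.17 FPKM in BR8, 0.622 and 0.332 in DMSO, 2.65 ± 0.25), and BOK fell (5.85 and 3.61 FPKM in BR8, 11.6 and 11 in DMSO, -1.13 ± 0.17). Inhibitors and promoters of apoptosis were both among the rises. However, BCL2, BCL2A1 and BIK passed the filter through the BR8 libraries alone, so they could only appear as rises. Of 18 p53 targets, 4 were higher and 3 lower, and 8 were higher and 2 lower with the GC trend removed. The secreted factor GDF15 (1.14 and 1.05 FPKM in BR8, 14.5 and 10.8 in DMSO, -2.69 ± 0.18) and the death receptor TNFRSF10B (27.4 and 26.0 FPKM in BR8, 55.5 and 52.1 in DMSO, -0.99 ± 0.08) fell, and DDB2 and ZMAT3 rose by 0.70 ± 0.09 and 0.69 ± 0.10. Among 13 FOXO targets, 8 were higher and 5 lower. KLF4 (10.1 and 9.28 FPKM in BR8, 1.77 and 1.64 in DMSO, 1.98 ± 0.09), CITED2 (124 and 129 FPKM in BR8, 34.4 and 32.2 in DMSO, 1.89 ± 0.09) and PIK3IP1, an inhibitor of phosphoinositide 3-kinase (6.71 and 6.68 FPKM in BR8, 1.40 and 1.41 in DMSO, 1.68 ± 0.13), rose, in contrast to KLF2.

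Of 25 lysosome and autophagy genes, 15 were higher and 3 lower, or 6 lower without DMSO replicate 2. MITF, a transcription factor of lysosome genes, had 5.50 and 5.61 FPKM in BR8, against 1.06 and 1.12 FPKM in DMSO (1.65 ± 0.09), and the protease CTSZ rose (184 and 195 FPKM in BR8, 90.3 and 62.2 in DMSO, 1.32 ± 0.16). The cholesterol exporter of lysosomes NPC1 (14.9 and 15.8 FPKM in BR8, 61.6 and 58.0 in DMSO, -1.90 ± 0.10) and cathepsin D, CTSD† (18.1 and 10.8 FPKM in BR8, 61.2 and 44.1 in DMSO, -1.82 ± 0.26), fell. Among 7 ABC transporters, 5 were higher and 1 lower: ABCC4 (42.8 and 42.7 FPKM in BR8, 17.0 and 20.1 in DMSO, 1.17 ± 0.10), ABCC3 (0.95 ± 0.10) and the drug exporter ABCB1 (1.72 and 1.70 FPKM in BR8, 0.464 and 0.370 in DMSO, 0.94 ± 0.10) rose, and ABCA2 fell (-1.20 ± 0.15). ABCB1 passed the filter through the BR8 libraries alone, so it could only appear as a rise. Among the 4 thyroid transcription factors, GLIS3, a Krüppel-like zinc finger factor, rose (16.0 and 16.4 FPKM in BR8, 6.39 and 6.65 in DMSO, 1.19 ± 0.07). PAX8, at 58.5 and 60.5 FPKM in BR8 and 53.4 and 35.3 FPKM in DMSO, was called (0.45 ± 0.16, adjusted p = 0.0431), but not without BR8 replicate 1 (0.47), BR8 replicate 2 (0.42) or DMSO replicate 2 (0.15, adjusted p = 0.148 by limma). HHEX and FOXE1 were not called (adjusted p = 0.161 and 0.407), and FOXE1 was higher with the GC trend removed (0.59, adjusted p = 0.00228).

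BR8 was next set directly against the other drug-exposed groups over the same 12471 genes. Against BR10, 1602 genes (12.8%) were higher in BR8 and 1522 (12.2%) lower, and leaving out 1 library at a time gave 944 to 1093 higher and 839 to 1041 lower, the lowest of each without BR8 replicate 1 and BR10 replicate 2. Against BR16, 3407 (27.3%) were higher and 3194 (25.6%) lower, together 52.9%, a difference that correlated with GC at a rho of -0.63, and with the GC trend removed the counts were 3156 and 1767. Leaving out any 1 of these 4 libraries gave 1805 to 2268 higher, the fewest without BR16 replicate 2, and 2237 to 2631 lower. Against parental cells given BLU667 for 24 h, 4156 (33.3%) were higher in BR8 and 3329 (26.7%) lower. ERK targets were lower in BR8 than in BR10 for 13 of 19 genes and higher for 0 (median -0.59), and NF-kB targets were higher for 14 of 16 and lower for 0 (median 1.04). Against BR16 the NF-kB targets divided into 8 higher and 6 lower: ICAM1 (1.61) and CXCL8 (2.20) were higher in BR8 and CCL2 (-1.39) was lower. ERK targets were lower than in BR16 for 6 genes and higher for 0, a share near the background of lower genes. Sterol genes were lower in BR8 than in BR10 for 15 of 22 and higher for 0 (median -0.55). BR8 thus lay below BR10 in ERK and sterol transcripts and above it in NF-kB transcripts.

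In all, 947 genes (7.59%) were higher in BR8 than in both other colonies and 793 (6.36%) lower, counts that rest on the full sets of libraries and were not recomputed with one left out. LUM, the matrix proteoglycan lumican and 1 of the fibroblast markers, had 4.61 and 6.43 FPKM in BR8, 0.123 and 0.0440 in BR10, 0.0819 and 0 in BR16, and no read in DMSO, where it was at least 190-fold lower. CNTN1, the neuronal adhesion protein contactin 1, had 3.84 and 3.70 FPKM in BR8, 0.157 and 0.153 in BR10, 0.321 and 0.150 in BR16, and no read in DMSO, where it was at least 324-fold lower. These genes, and RRAD, a small GTPase (6.49 and 3.72 FPKM in BR8, 0.145 and 0.181 in BR10, 0.757 and 0.594 in BR16, 0.0631 and 0.148 in DMSO), were detected at more than 3 FPKM in both BR8 libraries and below 1 FPKM in every other colony and DMSO library. LUM, CNTN1 and RRAD were chosen by their distance above both colonies, so their separation from the colonies follows from the choice. They passed the filter through the BR8 libraries alone, so against DMSO they could only appear as rises.

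The reverse held for FN1, which had 20.3 and 21.9 FPKM in BR8, 375 and 380 in BR10, 345 and 331 in BR16, and 121 and 127 in DMSO (-4.10 against BR10, adjusted p = 1.56e-06, and -3.94 against BR16, adjusted p = 1.82e-06, limma). In the other colonies FN1 was therefore above its DMSO level, and in BR8 below it. LRRC61†, a gene with leucine-rich repeats, had 0 reads in both BR8 libraries, against 5.43 and 7.24 FPKM in BR10, 17.4 and 16.7 in BR16, and 9.39 and 7.61 in DMSO, at least 267-fold lower than in DMSO. The vesicle fusion protein VAMP8 had 0.115 and 0.30 FPKM in BR8, 11.6 and 11.3 in BR10, 5.91 and 6.55 in BR16, and 4.41 and 3.32 in DMSO. The laminin receptor BCAM had 4.03 and 3.60 FPKM in BR8, 16.8 and 21.8 in BR10, 28.3 and 29.3 in BR16, and 25.1 and 15.8 in DMSO. IRS1 had 1.59 and 1.55 FPKM in BR8, 8.50 and 9.10 in BR10, and 8.91 and 9.16 in BR16, and KRT81 was lowest in BR8 as well (10.4 and 15.3 FPKM in BR10, 5.39 and 3.91 in BR16). The genes of this paragraph were chosen by their distance below both colonies. LRRC61, VAMP8 and KRT81 passed the filter through the DMSO libraries alone, so against DMSO they could only appear as falls.

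Many of the genes that differed from both colonies in these direct tests were neighbours in the genome. Windows of 5 Mb with at least 5 tested genes were compared (536 windows on GRCh38), under a rule set after the pattern was seen: a median difference of at least 0.4 in the same direction against both BR10 and BR16. It was met by 14 windows with higher and 18 with lower genes in BR8, and adjacent windows joined into blocks that held 557 genes, 4.47% of those tested. The lower blocks held 2.53% of tested genes and 230 (29%) of the 793 genes lower in BR8 than in both colonies, and the higher blocks 1.93% of tested genes and 149 (15.7%) of the 947 higher ones. As the windows were chosen by the same values, these shares are descriptions with no test.

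The block on chromosome 2 between 215 and 245 Mb was lower, with a median of -0.91 against DMSO, -0.78 against BR10 and -0.75 against BR16 over 120 genes, of which 104, 106 and 106 were called lower, against a background of 30.1%, 12.2% and 25.6%. Against DMSO, 8 of the 120 genes were called higher. BR10 and BR16 stood within 0.1 of DMSO over the same genes, with medians of -0.08 each. FN1 (chr2:215360440-215436172) and IRS1 (chr2:226731317-226799759) lie in it, with the nucleolar protein gene NCL (45.1 and 50.3 FPKM in BR8, 91.7 and 101 in BR10, 116 and 107 in BR16, 173 and 170 in DMSO) and prothymosin alpha, PTMA (90.8 and 104 FPKM in BR8, 268 and 278 in BR10, 347 and 341 in BR16, 436 and 400 in DMSO), whose pseudogenes make its reads uncertain. BR8 was the lowest of the 4 groups in all 4 genes. NCL and PTMA, like the examples that follow, were chosen after their values were seen.

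Chromosome 7 carried blocks in both directions, chosen by their shifted medians. Its windows from 0 to 5, 5 to 10 and 55 to 60 Mb did not meet the rule. Their medians were 0.25, 0.64 and 0.50 against DMSO, 0.38, 0.33 and 0.41 against BR10, and 0.22, 0.53 and -0.81 against BR16. Over all tested genes 25.9% were called higher and 30.1% lower than in DMSO. Between 10 and 50 Mb, 128 genes had a median of 0.54 against DMSO, and 86 were called higher, among them the respiratory chain subunit NDUFA4 (71.6 and 72.4 FPKM in BR8, 41.0 and 38.5 in BR10, 31.0 and 33.0 in BR16, 34.5 and 40.1 in DMSO), the glycyl-tRNA synthetase GARS (0.54 ± 0.10 against DMSO) and cyclophilin A, PPIA (341 and 423 FPKM in BR8, 268 and 282 in BR10, 131 and 134 in BR16, 200 and 179 in DMSO). In this block 8 genes were called lower, and IL6 lies in it too. Between 60 and 75 Mb, 71 genes had a median of 1.03 against DMSO, and 52 were called higher and 4 lower. There the glucuronidase GUSB had 42.7 and 46.6 FPKM in BR8, 17.5 and 18.2 in BR10, 18.6 and 16.6 in BR16, and 13.5 and 13.1 in DMSO, and the translation factor EIF4H had 249 and 225 FPKM in BR8, 77.0 and 84.2 in BR10, 120 and 112 in BR16, and 142 and 121 in DMSO. SBDS†, which serves ribosome maturation and has a close pseudogene (176 and 191 FPKM in BR8, 42.5 and 41.0 in BR10, 39.4 and 43.4 in BR16, 28.9 and 37.1 in DMSO), and the zinc finger gene ZNF117 (11 and 11.7 FPKM in BR8, 2.84 and 2.16 in BR10, 2.03 and 2.33 in BR16, 1.42 and 1.73 in DMSO) were the genes of this block among the 6 highest above both colonies.

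Lower blocks lay beyond 75 Mb, with a stretch from 90 to 110 Mb between them in which no window met the rule (medians against DMSO from -0.28 to 0.16). The blocks at 75 to 80 Mb (25 genes, median -0.68 against DMSO), 85 to 90 Mb (10 genes, -0.57) and 110 to 160 Mb (161 genes, -0.78) were lower. Of the 161 genes of the longest, 122 were called lower than in DMSO and 11 higher. MET and its neighbour CAV1, caveolin 1, lie there (CAV1 at 91.9 and 90.2 FPKM in BR8, 204 and 200 in BR10, 175 and 166 in BR16, 172 and 201 in DMSO), with the hedgehog signal transducer SMO (3.42 and 3.08 FPKM in BR8, 7.92 and 8.53 in BR10, 10.8 and 10.9 in BR16, 11.1 and 9.30 in DMSO), MTPN (36.2 and 33.9 FPKM in BR8, 68.3 and 64.7 in BR10, 59.1 and 59.1 in BR16, 75.9 and 95.8 in DMSO), PDIA4 and LRRC61. MET was lower in BR8 (30.4 and 31.3 FPKM) than in BR10 (76.2 and 76.9 FPKM, -1.28) and than in BR16 (38.3 and 37.8 FPKM, -0.29, adjusted p = 0.0392 by limma). With the GC trend removed, the medians against DMSO were -0.75 for the chromosome 2 block, 0.58 and 1.09 for the higher blocks of chromosome 7, and -0.71 for its longest lower block. Single windows on chromosomes 4, 12 and 17 also met the rule as higher, and that on chromosome 4, from 70 to 75 Mb, holds CXCL8. On chromosome 17 this window, from 65 to 70 Mb, did not stand alone. Its neighbour from 60 to 65 Mb fell just short, with medians of 0.57 against BR10, 0.39 against BR16 and 0.57 against DMSO. In the windows from 70 to 85 Mb the medians were 0.43, 0.22 and 0.22 against DMSO, and 0.18, 0.004 and -0.21 against BR16. Against BR10 they were 0.21, 0.48 and 0.39. With the GC trend removed, the medians of these windows against DMSO were 0.51, 0.41 and 0.63. Only RNA was measured.

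**Figure D4:**
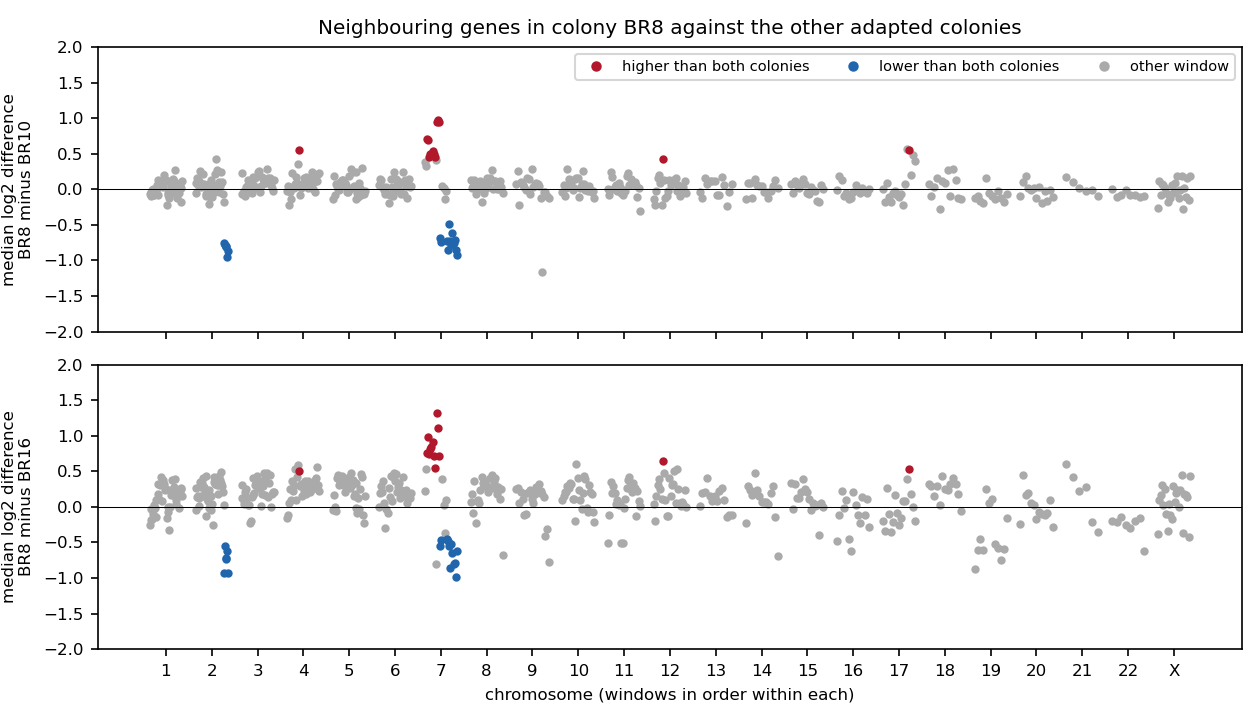
Median log2 difference of the tested genes in each of 536 windows of 5 Mb, BR8 minus BR10 above and BR8 minus BR16 below, with the windows in order along each chromosome and coloured where both medians reach 0.4 in the same direction. The coloured windows cluster on chromosome 2 (lower in BR8, block medians of -0.78 and -0.75) and on chromosome 7 (higher, then lower).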

How the data were processed

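Per the labels' protocols, RNA of TPC-1 cells was isolated with a Direct-zol kit and TRI reagent, treated with GlobinClear and made into NEB non-directional libraries. The submitters' processing notes name CASAVA, STAR 2.5, HTSeq 0.6.1, DESeq2 (version given as 2) and GRCh38. Other settings are not given in the sources used here. Values in the authors' deposited table are FPKM per gene and library, which are not counts. Whole reads could be recovered for the values (tolerance 0.05 reads), and these gave the depths and a count-based alternative. Their range sets the counting precision, and floors of 3 reads cover counting error only.

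The deposited FPKM values were taken to log2(FPKM + 1), kept at 1 FPKM or more in 2 of 4 libraries, and fitted with limma 3.58.1 (R 4.3.3) over 5 groups and 10 libraries, with 5 residual degrees of freedom and Benjamini-Hochberg adjustment. The fit was tested on simulated data. Genes were named if they were RET, CCDC6, TERT, CDKN2A or thyroid markers, among the 12 largest called rises or falls of protein-coding genes without overlap, among up to 4 called members of each list, or among the 6 on each side furthest from both other colonies, and others only to state roles. The members and the 38 lists (673 symbols, of which 1 was not found) were chosen with earlier results of these data known, and the block rule and its examples after their values were seen. Coordinates matched GENCODE 29 for 58724 genes. GC content was available for 12467 tested genes, and its trend was removed per library by loess (span 0.3). Removing it together with leaving out 1 DMSO library was added after seeing the data. Promoters came from RefSeq (GRCh38.p14). Tables were made with Python 3.11.15 and pandas 2.3.3, and figures with matplotlib 3.10.9. Some genes that the naming rule selects are not reported here; they remain in the counts.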

Additional observations from a re-analysis of the deposited data

Results flagged for a closer look

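These 11 genes differed between BR8 and both other colonies in direct limma tests, all compared over the same libraries, and the value given is the smaller of the gene's differences from BR10 and BR16 on the log2(FPKM + 1) scale. Higher in BR8 were LUM by 2.58, SBDS† by 2.11, CNTN1 by 1.95, RRAD by 1.83 and ZNF117 by 1.82. Lower in BR8 were FN1 (-3.94), LRRC61† (-2.86), VAMP8 (-2.58), BCAM (-2.07), IRS1 (-1.93) and KRT81 (-1.73). SBDS, ZNF117, FN1, LRRC61 and IRS1 lie in the blocks of neighbouring genes on chromosomes 2 and 7. No cause was tested, and each colony is a single colony.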

How the results depend on the processing

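No reported value reversed under the alternatives run, although 22 genes among all those tested were called in opposite directions with the GC trend removed, and 42 with DMSO replicate 2 left out as well. Counts within the gene groups moved by over 1.5 times in 116 cases over 31 lists. Requiring an absolute change of at least 1 on the log2 scale left 2015 genes against DMSO (931 higher, 1084 lower), 536 against BR10 (308, 228), 1091 against BR16 (260, 831) and 2203 against BLU667 24 h (1297, 906). At 5 FPKM or more, 2068 genes were higher than in DMSO, 2095 lower than in BR16 and 1921 lower than with BLU667 24 h. With the GC trend removed, 1767 were lower than in BR16. Leaving out 1 library gave 5529 to 7237 calls against DMSO (2527 to 3490 higher, 3002 to 3747 lower), 1838 to 2130 against BR10 (944 to 1093, 839 to 1041), 4042 to 4899 against BR16 (1805 to 2268, 2237 to 2631) and 6271 to 6461 against BLU667 24 h (3536 to 3615, 2735 to 2872). The lone library left in a group is assumed to vary like the other groups. Replicate numbers are shared by the labels only, and the deviations of BR8 and DMSO libraries of the same number did not correlate (-0.002): with the replicate block, 3109 genes were higher and 3617 lower than in DMSO, and TJP1 was not called (0.28, adjusted p = 0.0684 by limma). Among single genes, the call of OSGIN1, OCLN or BOK was lost with the GC trend removed and DMSO replicate 2 left out, and that of FTL with no filter on low values. The cause was not tested. Depth limits genes with few reads, such as NOX5 with 8 reads in BR8.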
